A study of Mus musculus with 36 samples.

Results

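Sprr1a, Lrtm2 and Defb1 are 3 of the 29546 genes measured in the livers of mice with experimental cholestasis, and were chosen because their changes in these same livers were very large or differed between models. The values that chose them are therefore given as a description, with no test. Sprr1a (ENSMUSG00000050359) encodes a small proline-rich protein, a precursor of the cornified envelope that transglutaminases crosslink under the membrane of stratified epithelial cells, and it is also known as a gene induced in injured neurons. Lrtm2 (ENSMUSG00000055003) encodes a transmembrane protein with leucine-rich repeats, a family studied mostly in the nervous system. Defb1 (ENSMUSG00000044748) encodes a beta-defensin, a small cationic antimicrobial peptide that epithelia secrete without needing an infection and that is abundant in the kidney.

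Liver RNA of 36 C57BL/6 mice was sequenced with QuantSeq, a method that counts transcripts by their 3' ends and tags each molecule so that amplification copies can be removed. The groups hold 4 mice each. Bile was blocked surgically by bile duct ligation for 7 days (BDL7) or 28 days (BDL28), with sham surgery as control (SHAM). The immunosuppressant cyclosporin A, which hinders bile flow, went by gavage in olive oil at 15 mg per kg for 7 days (CsA7) or 28 days (CsA28), with olive oil alone as control (VEHICLE), and 0.1% of DDC (3,5-diethoxycarbonyl-1,4-dihydrocollidine), a porphyrin-raising bile duct toxicant, was mixed into the diet for 7 days (DDC7) or 28 days (DDC28), and the mice of CTLD ate control diet. The control groups carry no day in the labels, and both days of a model are compared with the same 4 control mice.

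Libraries held 2081093 to 3770267 reads, with a median of 2826073. Values are normalized counts, which the authors made by dividing each library's gene counts by its own factor. Fold changes are differences of the mean log2(normalized count + 1), with the standard error of a limma fit over all 36 libraries. Hepatocyte markers were present in every group, as the tissue label says: their summed level was at least 43538 in every library. It was lower in the groups in which the 3 genes were high, with 43538 to 54542 in BDL7, 48455 to 60097 in BDL28 and 74492 to 82287 in SHAM, and with 48346 to 61417 in DDC7, 48062 to 57708 in DDC28 and 85183 to 106501 in CTLD. Of the 10 markers limma called 8, 6, 8 and 9 lower in BDL7, BDL28, DDC7 and DDC28 at an adjusted p under 0.05 and 0 higher. Among all 12596 genes tested it called 18.5%, 22.7%, 22.1% and 24.7% lower and 20.2%, 24.1%, 24.7% and 27.9% higher. With total-count scaling 5, 6, 7 and 7 markers were lower and 0, 3, 1 and 0 higher. All genes then split into 922, 1672, 1210 and 1602 lower and 4923, 4829, 5575 and 5838 higher. The part of these markers in the levels of the 3 genes was not tested. BDL28 replicate 1 stood apart from the other 3 mice of its group in all 3 genes, and each BDL28 change of these genes is given with and without it. Its summed cholangiocyte markers reached 3590 against 1196 to 1578 in the other 3, its macrophage markers 2209 against 722 to 1204, its neutrophil markers 469 against 189 to 245, and its dividing cell markers 250 against 34.9 to 40.9. In bulk tissue, fewer cells of a type and less RNA per cell cannot be told apart.

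The 250 bases before the transcription start were read from RefSeq (build GRCm38.p6) to show what the promoters hold, because Sprr1a and Lrtm2 were both higher in the same 4 groups. Capitals mark motif matches. Both strands were searched for 4 motifs, and no matches overlapped. The motif of the AP-1 factors was spelled TGANTCA. That of the STAT factors was spelled TTCNNNGAA. The box bound by the TATA-binding protein was spelled TATAAA, and the last motif was that of NF-kappa-B.
Sprr1a, minus strand, chr3:92485882-92486131: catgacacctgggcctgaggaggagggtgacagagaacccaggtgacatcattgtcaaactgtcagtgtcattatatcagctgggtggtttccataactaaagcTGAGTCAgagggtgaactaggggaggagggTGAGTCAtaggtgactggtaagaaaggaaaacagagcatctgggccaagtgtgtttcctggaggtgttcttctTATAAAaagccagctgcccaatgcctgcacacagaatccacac
Lrtm2 first entry, minus strand, chr6:119330767-119331016: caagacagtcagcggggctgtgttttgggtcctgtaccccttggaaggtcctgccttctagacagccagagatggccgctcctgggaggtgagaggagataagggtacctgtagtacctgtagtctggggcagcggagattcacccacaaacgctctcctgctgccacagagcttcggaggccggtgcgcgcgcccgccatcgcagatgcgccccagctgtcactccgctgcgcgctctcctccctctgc

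The Sprr1a window held TGAGTCA at 146 and at 116 bases before the start and TATAAA at 43 bases before it. Among 32851 promoter entries, 6.75% held TGANTCA at least once and 0.338% held it 2 or more times, 12.4% held TATAAA, 7.02% held TTCNNNGAA and 3.33% held the NF-kappa-B motif. The Lrtm2 window, and a second Lrtm2 entry at chr6:119329205-119329454, held none of the 4 motifs, which says only that these letters are not in these windows. Defb1 has no entry in the promoter table.

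**Figure D1:**
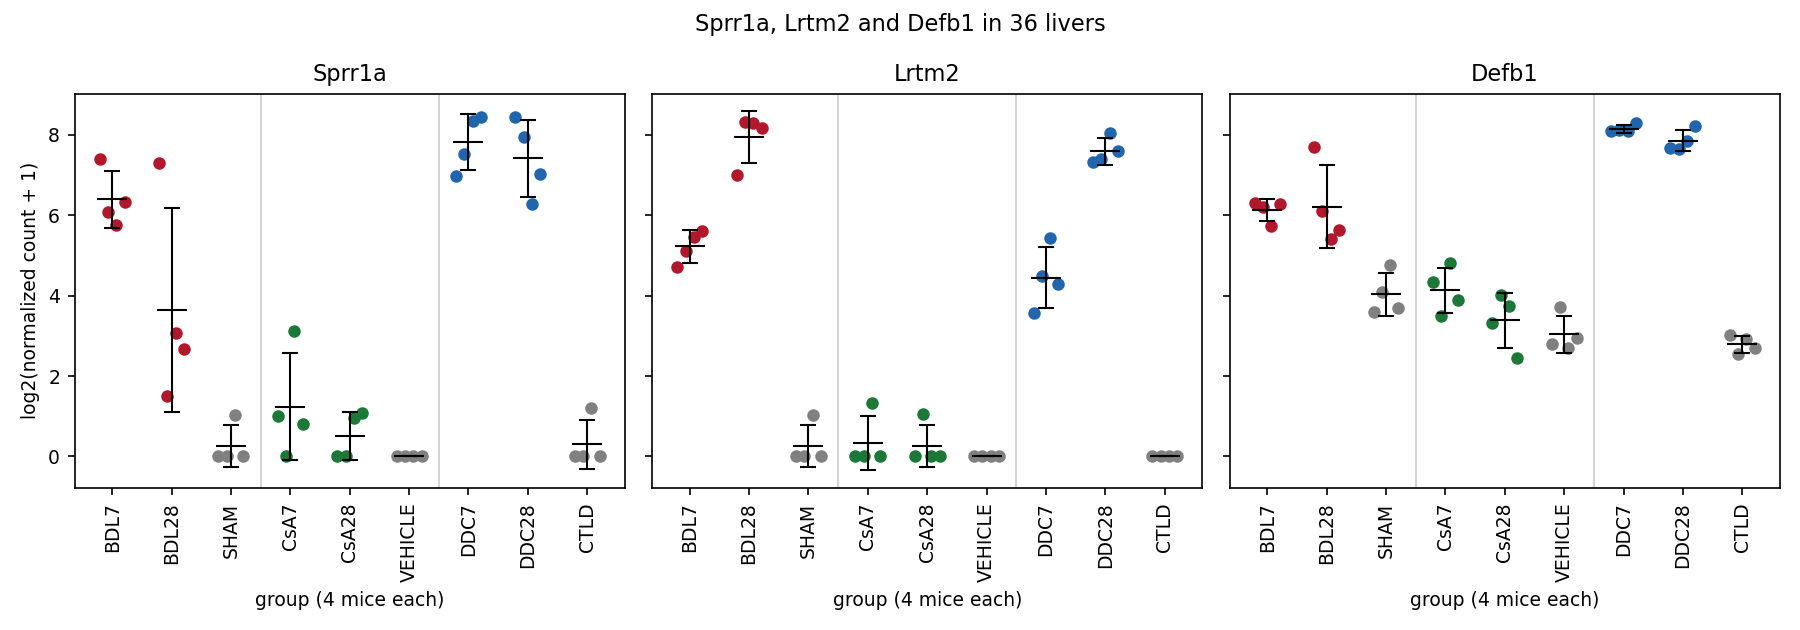
Level of Sprr1a, Lrtm2 and Defb1 in each of the 36 livers, as log2(normalized count + 1), with the 4 mice of a group as points and the mean ± SD as a bar. Sprr1a and Lrtm2 are at or near 0 in SHAM, VEHICLE and CTLD and in the cyclosporin groups, apart from CsA7 replicate 3 for Sprr1a at 7.66 normalized counts, while Defb1 is present in every group and highest in DDC7 and DDC28.

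Sprr1a, the small proline-rich gene, was read in all 16 ligated and DDC-fed livers, and no other liver held more than 10 of its reads. The livers were not set apart by this, since BDL28 replicates 2, 3 and 4 held 2, 8 and 5 reads and CsA7 replicate 3 held 10. In BDL7 it had 169, 67.1, 52.8 and 79.4 normalized counts, against 0, 0, 1.05 and 0 in SHAM. In DDC7 it had 125, 182, 323 and 348, and in DDC28 345, 244, 76.9 and 129, against 0, 0, 1.305 and 0 in CTLD. Every library of these 3 treated groups was above every control library.

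The mean of Sprr1a was 92.0 ± 52.3 in BDL7 and 0.263 ± 0.526 in SHAM (SD, n = 4 each), a log2 fold change of 6.14 ± 0.74 (SE). SHAM held 1 Sprr1a read in all and BDL7 held 425, so the ratio of the groups' reads, scaled by the library factors, is 315 with an exact counting interval (95%) of 56.2 to 12456. In DDC7 the log2 fold change was 7.52 ± 0.74 and in DDC28 it was 7.12 ± 0.74, with 1215 and 1049 reads against 1 read in CTLD. Of the 12596 genes kept by the filter, the Sprr1a change ranked 4 from the highest in BDL7, 100 in BDL28, 2 in DDC7 and 8 in DDC28.

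In BDL28 the level of Sprr1a split by mouse. Replicate 1 had 157 normalized counts, while the other 3 had 1.84, 7.43 and 5.36, against at most 1.05 in SHAM. The lowest of them rests on 2 reads and the highest SHAM library on 1 read. The log2 fold change was 3.38 ± 0.74 and 2.16 without replicate 1, and the scaled ratio of reads was 141 (25.1 to 5619) and 16.1 (2.48 to 678) without replicate 1. The group averaged 43.0 ± 76.3 (SD, n = 4), and 4.88 ± 2.83 without replicate 1 (SD, n = 3), and these 3 mice lay below all 4 BDL7 mice. The log2 difference of BDL28 over BDL7 was -2.76 ± 0.74, and -3.98 without replicate 1.

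Sprr1a was read in a few cyclosporin livers. CsA7 had 1.01, 0, 7.66 and 0.762 normalized counts, from 12 reads, of which 10 came from replicate 3, against 0 reads in VEHICLE. CsA28 had 0, 0, 0.951 and 1.12, from 2 reads. The groups overlapped with VEHICLE in both days. Against the 3 reads that a group with no reads allows, CsA7 was at least 3.06-fold higher over the group, and without replicate 3 no bound is given, since 2 reads remain. This mouse also stood apart in dividing cell markers, with 258 against 41.5 to 57.9 in the other 3 CsA7 mice. In gallbladder and mucous markers it had 162 against 14.2 to 18.8, of which Tff3 alone made up 151. The part of these markers was not tested.

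Lrtm2, the leucine-rich repeat gene, was absent or nearly absent from control and cyclosporin livers and high at day 28 of the other models. BDL28 had 126, 319, 313 and 285 normalized counts and BDL7 had 25.1, 33.6, 42.9 and 48.1, against 0, 0, 1.05 and 0 in SHAM. DDC28 had 158, 167, 265 and 191 and DDC7 had 10.9, 21.6, 41.9 and 18.4, against 0 reads in CTLD. In each of these groups the lowest mouse was above the highest control mouse.

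The log2 fold change of Lrtm2 was 4.96 ± 0.38 in BDL7 and 7.68 ± 0.38 in BDL28 (SE), which is 7.999 without replicate 1. The scaled ratio of reads was 125 in BDL7 (exact counting interval at 95%, 22.2 to 4970) and 871 in BDL28 (156 to 34451), since SHAM held 1 read. Without BDL28 replicate 1 it was 1020 (183 to 40325). In DDC7 the log2 fold change was 4.44 ± 0.38 and the level at least 23.9-fold higher, and in DDC28 it was 7.58 ± 0.38 and at least 209.5-fold higher, against the floor of 3 reads in CTLD. In cyclosporin livers Lrtm2 had 2 reads in CsA7, both in replicate 3, 1 read in CsA28 and 0 in VEHICLE, so no fold is given.

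Between days, Lrtm2 was higher at day 28 than at day 7 in both models where it was read. BDL28 averaged 261 ± 91.0 and BDL7 37.4 ± 10.2 (SD, n = 4 each), a log2 difference of 2.72 ± 0.38 and a ratio of 6.97, which are 3.04 and 8.17 without BDL28 replicate 1. DDC28 averaged 195 ± 48.7 and DDC7 23.2 ± 13.2, a log2 difference of 3.14 ± 0.38 and a ratio of 8.42. The day groups did not overlap in either model. Replicate 1 of BDL28 was the lowest of its group for Lrtm2, at 126, and the highest for Sprr1a and Defb1.

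Lrtm2 lies within Cacna2d4, a calcium channel subunit gene on the opposite strand, in GENCODE M21 and RefSeq annotations of GRCm38. Cacna2d4 had 22 reads over the BDL28 libraries, 10 over DDC28, 4 over BDL7, 2 over CsA7 and 0 over the other 5 groups. Lrtm2 had 1078 reads in BDL28 and 955 in DDC28, so the partner was far lower in every group where Lrtm2 was high. Whether the counting used strand is not given in the sources used here. Without strand, reads from any bases that exons of both genes cover could not be told apart. Whether their exons overlap was not examined. No 50-base stretch of the last 400 bases of Sprr1a, Lrtm2 or Defb1 transcripts was found in another gene.

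Defb1, the beta-defensin, was present in every group and higher in all ligated and DDC-fed livers. DDC7 had 274, 275, 271 and 312 normalized counts and DDC28 had 204, 199, 229 and 298, against 7.10, 4.86, 6.52 and 5.46 in CTLD. BDL7 had 77.7, 72.2, 51.8 and 76.3 and BDL28 had 206, 68.0, 41.8 and 48.2, against 11.01, 16.1, 26.3 and 11.9 in SHAM. Each of these treated groups lay wholly above its control.

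The DDC7 mean of Defb1 was 283 ± 19.2 and the CTLD mean 5.98 ± 1.01 (SD, n = 4 each), a ratio of 47.3 and a log2 fold change of 5.36 ± 0.35 (SE). DDC28 averaged 233 ± 45.2, a ratio of 38.9 over CTLD and a log2 fold change of 5.06 ± 0.35. In BDL7 the log2 fold change was 2.09 ± 0.35, with a ratio of 4.26, and in BDL28 it was 2.17 ± 0.35, with a ratio of 5.57. Without replicate 1 the BDL28 log2 fold change was 1.68 and the ratio 3.23, and the 3 other BDL28 mice averaged 52.7 ± 13.7.

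In the cyclosporin model Defb1 had 19.2, 10.3, 26.8 and 13.7 normalized counts in CsA7 and 9.06, 15.0, 12.4 and 4.46 in CsA28, against 5.98, 12.03, 5.47 and 6.70 in VEHICLE. Both groups overlapped with VEHICLE, in CsA7 by 1 mouse of each group. The log2 fold change was 1.09 ± 0.35 in CsA7 and 0.34 ± 0.35 in CsA28. The CsA28 group averaged 10.2 ± 4.55 and VEHICLE 7.55 ± 3.03.

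By median level, Defb1 was highest in DDC7, followed by DDC28, BDL7, BDL28, CsA7, SHAM, CsA28, VEHICLE and CTLD. Each overlapped the next, except that DDC28 lay wholly above BDL7 and BDL28 wholly above CsA7. For Lrtm2 the order by median was BDL28, DDC28, BDL7 and DDC7, where BDL28 overlapped DDC28, BDL7 overlapped DDC7, and DDC28 lay wholly above BDL7. For Sprr1a it was DDC7, DDC28, BDL7 and BDL28, each overlapping the next, and BDL28 also overlapped CsA7, which came after it.

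**Figure D2:**
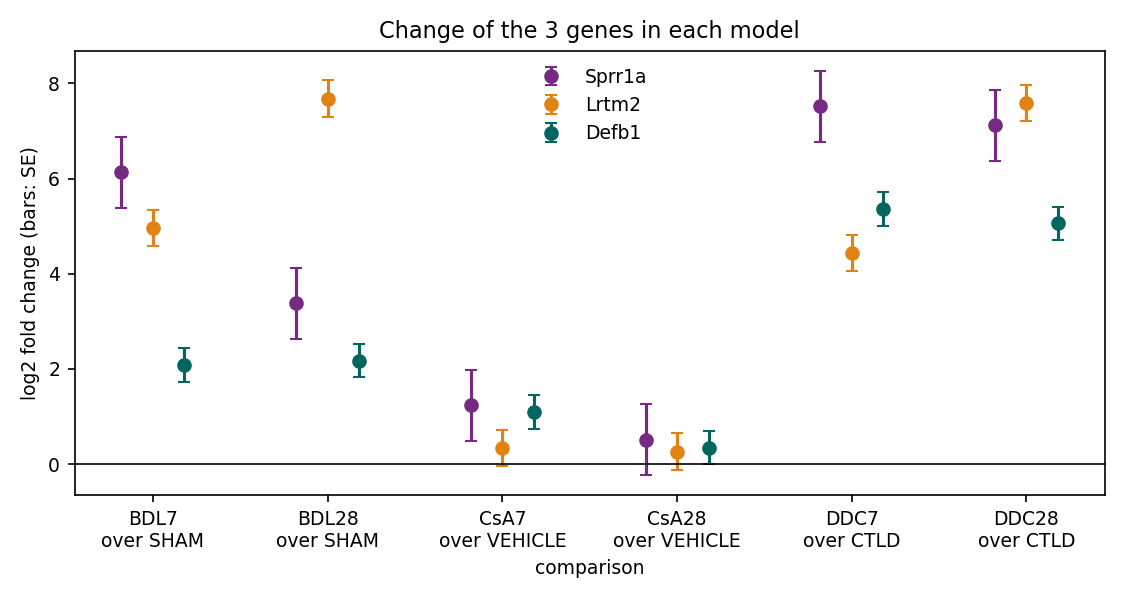
Log2 fold change of Sprr1a, Lrtm2 and Defb1 in each treated group over its own control, with the standard error of the limma fit as bars. In DDC7 Sprr1a is at 7.52 and Lrtm2 at 4.44, in BDL28 Lrtm2 is at 7.68 and Sprr1a at 3.38, and all 3 genes are at 1.24 or below in the cyclosporin groups.

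All 4 libraries of the treated group were above all 4 of the control for 3 of 3 genes in BDL7, BDL28, DDC7 and DDC28 and for 0 of 3 in CsA7 and CsA28. The share of all 12596 genes tested for which this held was 19.8% in BDL7, 18.7% in BDL28, 5.01% in CsA7, 1.85% in CsA28, 23.2% in DDC7 and 25% in DDC28. The genes were chosen on these contrasts, so nothing is read from their counts. The comparisons of a model at day 7 and day 28 share their control mice.

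Among mice of the same group, the correlation of the log2 residuals between Sprr1a and Defb1 was 0.57 over 36 libraries and 0.22 without BDL28 replicate 1. Between Lrtm2 and Defb1 it was 0.05 and 0.44, and between Sprr1a and Lrtm2 it was -0.16 and 0.25. These are descriptions of libraries that share depth and groups.

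**Figure D3:**
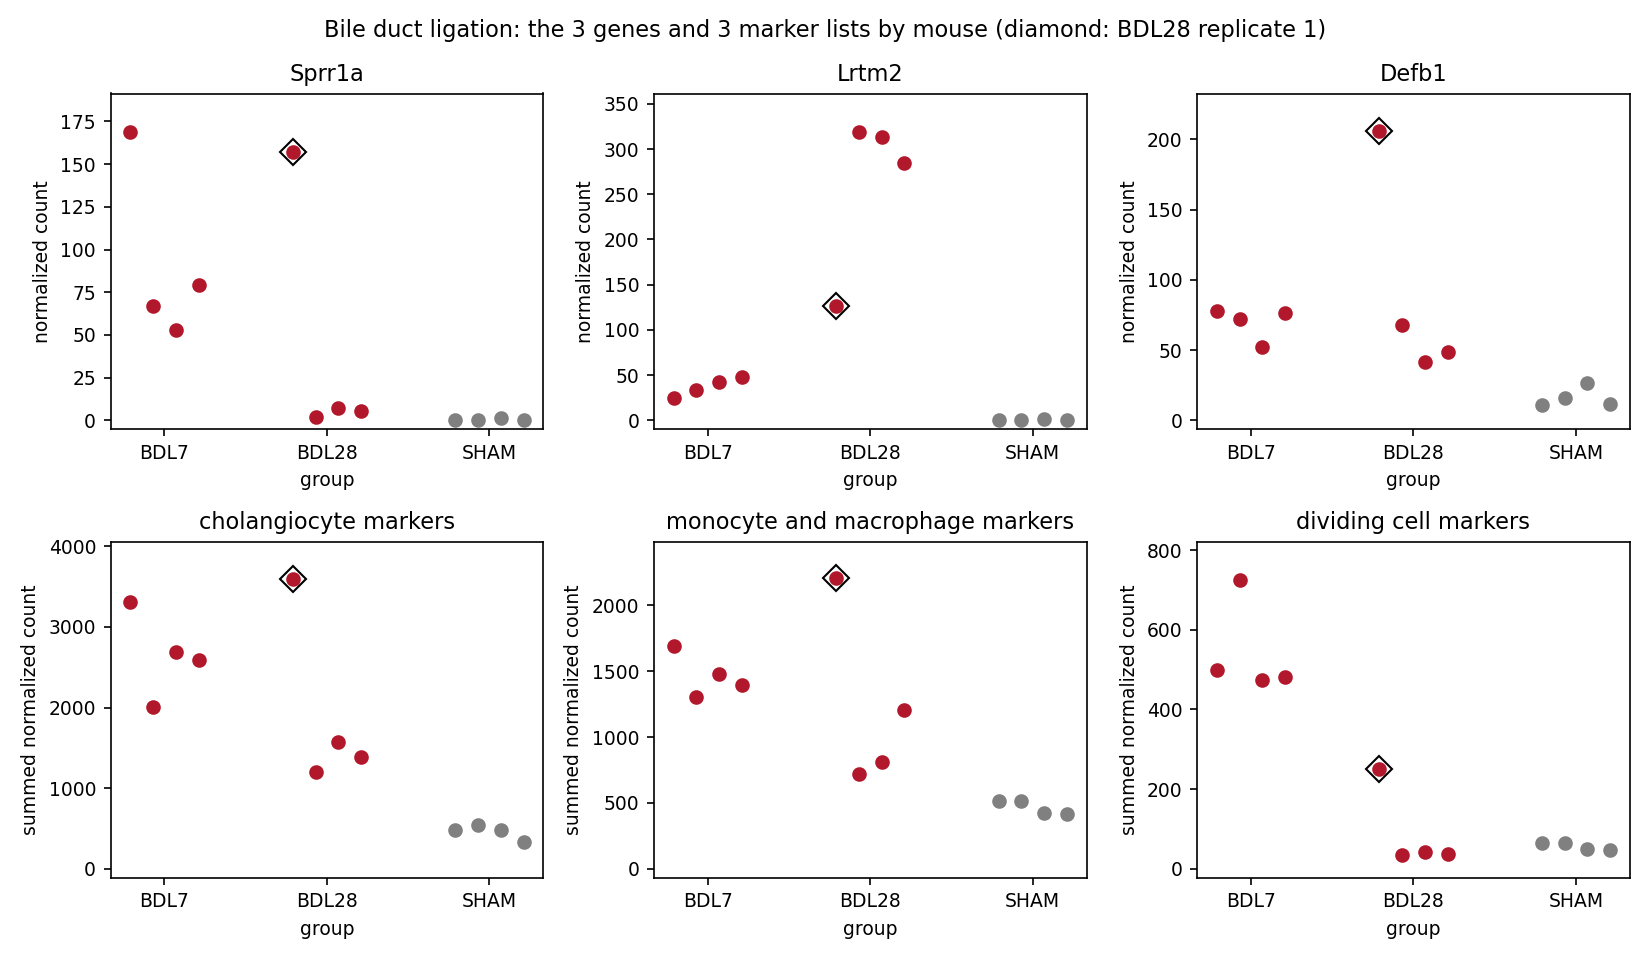
Normalized counts of Sprr1a, Lrtm2 and Defb1 (upper row) and summed normalized counts of cholangiocyte, macrophage and dividing cell marker lists (lower row) in the mice of BDL7, BDL28 and SHAM, with BDL28 replicate 1 in a diamond. This mouse reads 157 for Sprr1a against at most 7.43 in the other 3 BDL28 mice and 250 for dividing cell markers against at most 40.9.

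Marker lists moved with the same groups, and their part in the levels of the 3 genes was not tested. The 15 cholangiocyte markers, all in the table, summed to 2005 to 3304 in BDL7, 1196 to 3590 in BDL28 and 337 to 545 in SHAM, and to 1400 to 1924 in DDC7, 1536 to 2918 in DDC28 and 363 to 452 in CTLD. Dividing cell markers summed to 474 to 725 in BDL7 and 34.9 to 250 in BDL28, with 46.2 to 65.8 in SHAM, and to 526 to 1059 in DDC7 and 50.6 to 282 in DDC28, with 45.7 to 64.8 in CTLD. Among ligated mice, the 4 BDL7 mice and BDL28 replicate 1 were the 5 highest in Sprr1a, and also in summed dividing cell, cholangiocyte and macrophage markers. The cholangiocyte sum rests mostly on Spp1, with 27955 reads over all libraries, and Sox9, with 9825. Gene by gene, limma called 2 of 14 tested cholangiocyte markers higher and 1 lower in BDL28 than in BDL7. Their median log2 difference was 0.50. The 4 DDC28 mice had dividing cell markers of 282, 172, 50.6 and 76.2 and Sprr1a of 345, 244, 76.9 and 129. The DDC7 mice had dividing cell markers of 526, 922, 579 and 1059 and Sprr1a of 125, 182, 323 and 348. The BDL7 mice had dividing cell markers of 498, 725, 474 and 482 and Sprr1a of 169, 67.1, 52.8 and 79.4. The order of the mice was the same for both in DDC28, but not in DDC7 or BDL7. Macrophage markers summed to 1302 to 1694 in BDL7, 722 to 2209 in BDL28 and 414 to 515 in SHAM. They summed to 1157 to 1651 in DDC7, 1780 to 2531 in DDC28 and 434 to 525 in CTLD. Lrtm2 was highest at day 28, where dividing cell markers were lower than at day 7.

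Markers of other tissues in which the 3 genes are known were also summed. Of 10 keratinocyte markers 7 were in the table, with 10.9 to 21.4 normalized counts in BDL7, 19.7 to 37.7 in BDL28 and 23.6 to 39.1 in SHAM, and 10.96 to 24.1 in DDC7, 16.5 to 32.1 in DDC28 and 22.7 to 24.3 in CTLD. Of 8 kidney tubule markers 3 were in the table, with a sum of at most 2.61 in any library. Of 10 neuron markers 8 were in the table, with sums of 62.8 to 96.9 in BDL7, 33.4 to 99.4 in BDL28 and 60.5 to 75.7 in SHAM, and of 77.7 to 97.3 in DDC7, 41.6 to 79.0 in DDC28 and 45.6 to 61.5 in CTLD. In these sums DDC7 lay wholly above CTLD, and BDL28 replicate 1 was at 99.4 against 33.4 to 38.6 in the other 3 mice. The neuron sums rest mostly on Syt1, with 2274 reads over all libraries, followed by Map2 with 325. The 8 Schwann cell markers, all in the table, summed to 21.4 to 49.9 in BDL7, 23.2 to 32.9 in DDC7, 37.5 to 82.6 in BDL28 and 43.4 to 68.1 in DDC28, against 5.504 to 14.7 in SHAM and 14.2 to 22.7 in CTLD.

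The other members of the 2 families were almost unread. Of 15 other Sprr genes 4 were in the table, with 89 reads over the 36 libraries, of which Sprr2a2 had 52 and Sprr2a3 had 28, and none passed the filter. The Sprr2a genes are close copies of each other, so the division of reads among them is uncertain. Of 42 other beta-defensins 5 were in the table, with 13 reads, and none passed the filter. Sprr1a had 2880 reads and Defb1 3490.

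Beside the families, lists of genes of related roles were tested with limma over all 12596 genes at an adjusted p of 0.05. In either direction, limma called 38.7% of all genes in BDL7 (20.2% higher, 18.5% lower), 46.8% in BDL28 (24.1% higher, 22.7% lower), 46.8% in DDC7 (24.7% higher, 22.1% lower) and 52.7% in DDC28 (27.9% higher, 24.7% lower). It called 4.03% in CsA7 (1.88% higher, 2.14% lower) and 0.0238% in CsA28 (0.00794% higher, 0.0159% lower). Scaling each library by its total reads instead raised the median change of all genes to 0.33 in BDL7, 0.29 in BDL28, 0.38 in DDC7, 0.39 in DDC28 and 0.13 in CsA7, against 0.01, 0.03, 0.04, 0.04 and 0.00, and turned the split in BDL7 to 4923 higher and 922 lower, beside 2549 and 2327. In BDL28 it was 4829 and 1672, beside 3037 and 2859, in DDC7 5575 and 1210, beside 3112 and 2779, in DDC28 5838 and 1602, beside 3516 and 3117, and in CsA7 699 and 140, beside 237 and 270. No called change of a named list gene turned its direction under this scaling.

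Of 25 cornified envelope partners 16 were in the table, and 8 of these passed the filter and were tested. The 8 under the filter held 378 reads over all libraries, among them Lor with 130, Evpl with 41 and Ivl with 15. Of the 8 tested, limma called 6 higher in BDL7, 5 in BDL28, 7 in DDC7 and 6 in DDC28, and 1 lower, in BDL28. The other tested genes were not called, 2, 2, 1 and 2 in these comparisons, and 0 of 8 were called in CsA7 and CsA28. The median log2 change was 1.75, 0.86, 1.081 and 1.58 in BDL7, BDL28, DDC7 and DDC28, beside 0.01, 0.03, 0.04 and 0.04 over all genes. The share called in either direction was 75%, 75%, 87.5% and 75%, beside 38.7%, 46.8%, 46.8% and 52.7% of all genes. With total-count scaling 8, 6, 7 and 6 were higher and 0 lower in these 4 comparisons. Ppl, periplakin, a scaffold of the envelope, averaged 138 ± 10.8 in BDL7 and 15.2 ± 5.17 in SHAM (log2 fold change 3.15 ± 0.23, limma adjusted p = 1.06e-12), and 178 ± 26.4 in DDC7 and 26.7 ± 8.62 in CTLD (2.73 ± 0.23, adjusted p = 1.77e-11).

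S100a11, a calcium-binding protein, averaged 242 ± 54.7 in BDL7 and 24.4 ± 4.42 in SHAM, and 259 ± 58.1 in DDC28 and 42.6 ± 9.23 in CTLD. Tgm2, a transglutaminase, averaged 936 ± 202 in BDL7, 414 ± 105 in BDL28 and 242 ± 18.9 in SHAM, and its BDL28 level was lower than its BDL7 level (log2 difference -1.19 ± 0.18, limma adjusted p = 8.06e-06). Anxa1, an annexin, averaged 67.9 ± 9.60 in DDC28 and 16.0 ± 1.21 in CTLD. Desmoplakin (Dsp) and Pkp3, both of desmosomes, rose in DDC28, with log2 fold changes of 1.16 ± 0.14 and 2.17 ± 0.51. Pkp3 levels were low, at 11.8 ± 3.18 in DDC28 and 1.78 ± 0.398 in CTLD.

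Nerve-injury regeneration genes, with which Sprr1a is known to be induced in neurons, moved both ways. Sox11, Gap43, Stmn2, Npy and Vip were under the filter and not tested, with 1 to 48 reads each over all libraries. Of 11 tested, 4 rose and 1 fell in BDL7 (45.5% called, beside 38.7% of all genes), and 5 rose and 2 fell in BDL28 (63.6% beside 46.8%). In DDC7 6 rose and 2 fell (72.7% beside 46.8%), and in DDC28 5 rose and 2 fell (63.6% beside 52.7%). The split depended on scaling: with total-count scaling 6, 6, 7 and 7 rose and 0, 2, 1 and 1 fell in BDL7, BDL28, DDC7 and DDC28. Klf6, a transcription factor, averaged 488 ± 190 in BDL28 and 70.8 ± 8.45 in SHAM, and 481 ± 69.9 in DDC7 and 62.6 ± 17.2 in CTLD. Ankrd1, an ankyrin-repeat protein, averaged 38.5 ± 9.83 in BDL28 and 2.18 ± 1.29 in SHAM. Hspb1, a small heat shock protein, was lower, at 87.5 ± 22.7 in DDC28 and 727 ± 126 in CTLD (log2 fold change -3.06 ± 0.43, limma adjusted p = 1.18e-06).

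The gp130 cytokines, receptors and feedback genes had 2 of 11 higher and 3 lower in BDL7 (45.5% called, beside 38.7% of all genes), 3 and 2 in BDL28 (45.5% beside 46.8%), 2 and 3 in DDC7 (45.5% beside 46.8%), and 2 and 2 in DDC28 (36.4% beside 52.7%). These shares are near or below those of all genes, so nothing is read from them. With total-count scaling 4, 3, 4 and 4 were higher and 1 was lower in each of the 4 comparisons. Il6, Il11, Lif, Osm and Cntf were under the filter, with 21 to 80 reads each over all libraries. Clcf1 was the only cytokine of the list that was tested. Lifr, the receptor of leukaemia inhibitory factor, averaged 204 ± 55.1 in BDL28 and 1151 ± 163 in SHAM, and 284 ± 18.6 in DDC28 and 1078 ± 142 in CTLD. Clcf1, a cytokine of this family, averaged 31.4 ± 6.72 in DDC28 and 1.82 ± 1.35 in CTLD (log2 fold change 3.68 ± 0.47, limma adjusted p = 4.82e-08). Osmr, the oncostatin M receptor, averaged 35.98 ± 14.1 in BDL7 and 8.23 ± 3.30 in SHAM.

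Transmembrane leucine-rich repeat genes other than Lrtm2 were called about as often as all genes or less. Of 29 in the table, 17 were under the filter and not tested. Of 12 tested, 2 rose and 1 fell in BDL7 (25.0% called, beside 38.7% of all genes), 1 and 3 in BDL28 (33.3% beside 46.8%), 2 and 2 in DDC7 (33.3% beside 46.8%), and 2 and 4 in DDC28 (50% beside 52.7%), so nothing is read from these counts. The medians of -0.18, -0.06, -0.30 and -0.33 were above 0 with total-count scaling, at 0.10, 0.17, 0.01 and 0.02. Flrt3 averaged 17.6 ± 4.42 in BDL28 and 0.621 ± 1.24 in SHAM (limma adjusted p = 2.64e-06). Lrig2 averaged 39.1 ± 5.67 in DDC28 and 16.8 ± 5.70 in CTLD (limma adjusted p = 1.39e-05).

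Of 12 other secreted antimicrobial proteins tested, the class Defb1 belongs to, limma called 8 higher in BDL7, 8 in BDL28, 6 in DDC7 and 7 in DDC28, and 1 lower, in DDC28. The share called in either direction was 66.7%, 66.7%, 50% and 66.7%, beside 38.7%, 46.8%, 46.8% and 52.7% of all genes. Median log2 changes were 1.32, 1.43, 1.101 and 1.57, beside 0.01, 0.03, 0.04 and 0.04 over all genes. With total-count scaling 11, 9, 8 and 8 were higher and 0 lower in these 4 comparisons. A further 9 of the list were under the filter. Slpi, a secreted protease inhibitor, averaged 152 ± 64.1 in BDL7 and 6.66 ± 6.16 in SHAM, and 141 ± 44.7 in DDC7 and 4.57 ± 3.27 in CTLD (log2 fold change 4.84 ± 0.59, limma adjusted p = 1.09e-07). Lcn2, lipocalin, averaged 1681 ± 225 in BDL7 and 7.42 ± 5.69 in SHAM.

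S100a8 and S100a9 also stand in the neutrophil list, and Lyz2 in the macrophage list, which moved in the same groups. Neutrophil markers summed to 196 to 338 in BDL7 and 358 to 387 in DDC28, against 29.8 to 45.4 in SHAM and 9.13 to 27.3 in CTLD. In CsA7 and CsA28 limma called 0 of 54 genes over the 5 lists. At an unadjusted p under 0.05 there were 15 in CsA7 and 8 in CsA28, edgeR called 5 and 0, and DESeq2 called 6 and 4. VEHICLE itself was uneven in neutrophil markers, with 300, 116, 7.66 and 5.36 over its 4 mice, and averaged 292 ± 400 in Lcn2 and 56.8 ± 72.7 in S100a8. Without VEHICLE replicate 1, or without replicate 2, limma also called 0 of 12 antimicrobial genes in CsA7 and CsA28, and the part of this spread in the absent calls was not tested.

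**Figure D4:**
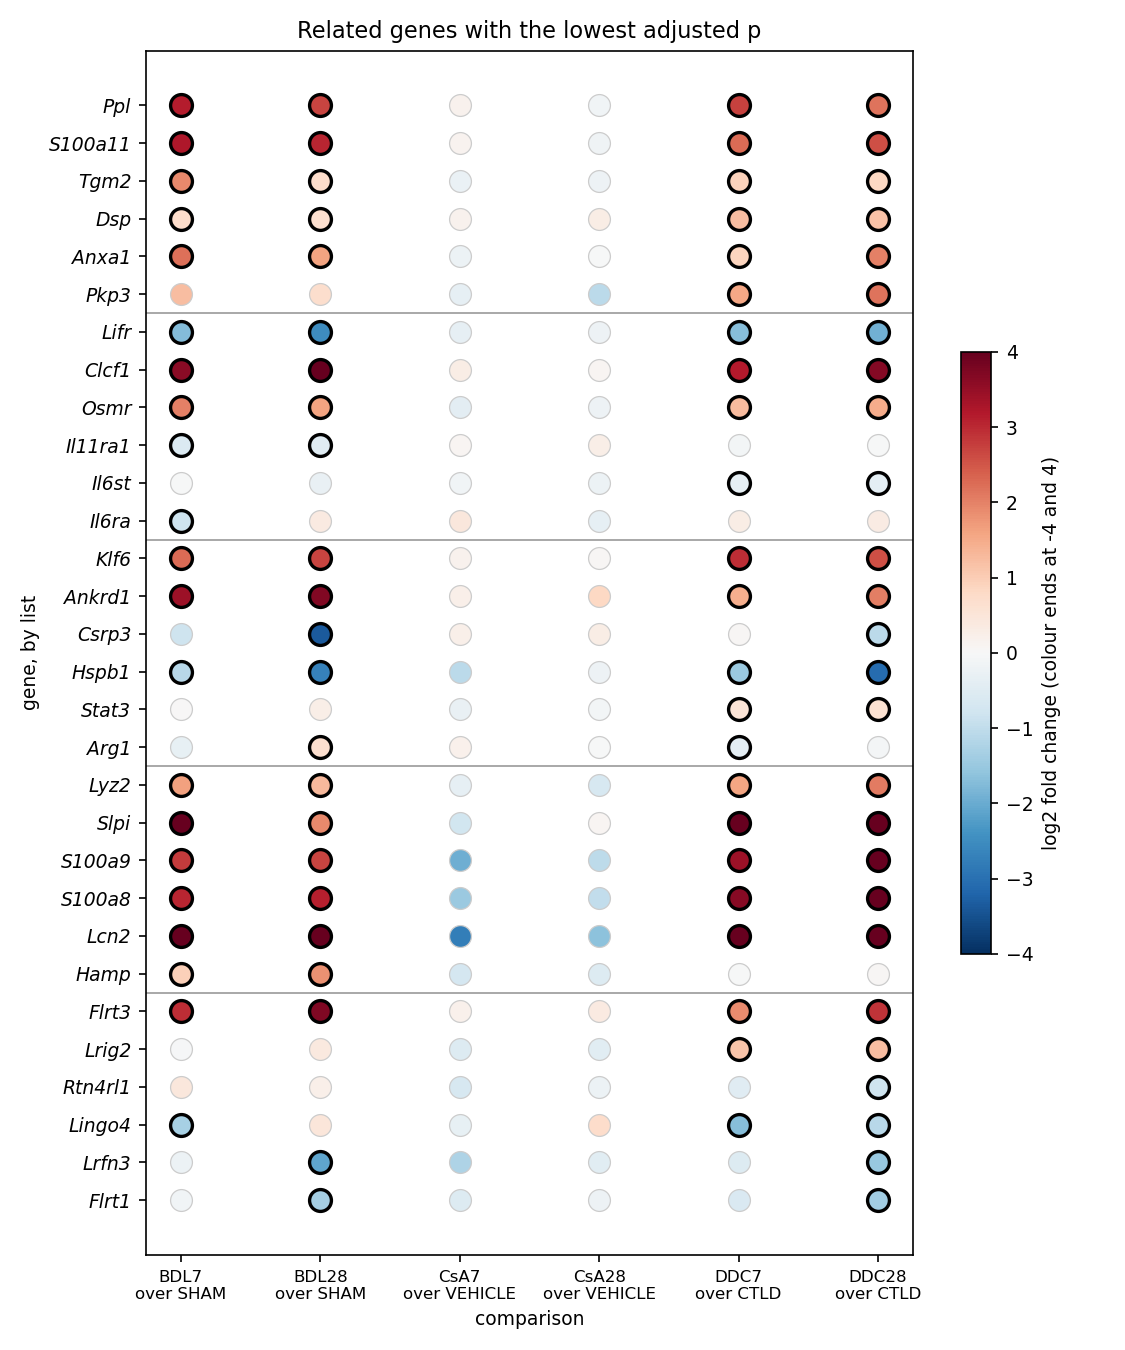
Log2 fold change, as colour, of the genes with the lowest adjusted p in each list, by comparison, with black rings where limma called the gene at an adjusted p under 0.05. From the top the blocks are cornified envelope partners, gp130 genes, nerve-injury genes, antimicrobial proteins and leucine-rich repeat genes. Ppl reaches 3.15 in BDL7 and Hspb1 reaches -3.06 in DDC28, and no gene is ringed in the cyclosporin columns.

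Patterns over the 9 group means were compared by Pearson correlation of log2 values, as a description over groups that share their libraries. For Sprr1a the 6 closest genes were Gstm3 (0.989), Anxa2, Cbr3, Cd300a, Parvg and Cstb (0.984). For Lrtm2 they were Sult1e1 (0.993), Mmp7, Mvb12b, Enah, Mcrip1 and Cd36 (0.990), and for Defb1 Srxn1 (0.985), Agfg1, Sat1, AI413582, Ggh and Ctnna1 (0.979). Sult1e1 averaged 1007 in BDL28 and 1.73 in SHAM, and 331 in DDC28 and 0.599 in CTLD. Gstm3 averaged 3129 in DDC7 and 164 in CTLD.

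Among mice within groups, the 4 genes closest to Sprr1a over 36 libraries were Sdcbp (0.847), Rgs5, Pea15a and Slc48a1, to Lrtm2 Cep57 (0.688), Afmid, Tfdp2 and Atp10d, and to Defb1 Synj2 (0.722), Cygb, Col14a1 and Ccdc80. Without BDL28 replicate 1 the value of Sdcbp was 0.667, that of Cep57 0.670 and that of Synj2 0.571, and 1, 1 and 0 of these 4 genes stayed among the closest 4.

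Of the annotated neighbours, Sprr1b had 3 reads, Ivl 15 and Smcp 2 beside Sprr1a over all 36 libraries, and the defensins Defa34 and Defa24 had 6 each beside Defb1. Beside Lrtm2, Adipor2, an adiponectin receptor, averaged 640 in BDL28 and 1478 in SHAM, and Fbxl14, an F-box protein, averaged 81.2 in BDL28 and 49.6 in SHAM. Dcp1b, Wnt5b and Ankrd26 were also read, and Cacna1c had 32 reads.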

How the data were processed

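Total RNA of 36 livers was made into QuantSeq 3' mRNA libraries with molecular identifiers, per the labels' protocols. Per the submitters' processing notes, RSEM 1.3.1, STAR 2.7.9a, DESeq2, Trim Galore and UMI-tools 1.1.1 were used with build GRCm39. What each tool did, which annotation was counted and whether strand was used is not given in the sources used here. Deposited values are of the unit signal, each library's gene counts over a factor of its own, made by the authors. In every library all values were whole multiples of 1 step, within 0.001 read, so reads were recovered by division.

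A reference gene name table gave symbols for 29121 of 29546 IDs. RefSeq (GRCm38.p6) gave neighbours and promoters, and GENCODE M21 strands and transcripts. Replicate numbers are those of the sample descriptions. Genes with at least 10 normalized counts in at least 4 libraries (12596) were fitted with limma 3.58.1 in R 4.3.3 on log2(normalized count + 1), with 1 coefficient per group, trend and robust options, and 2-sided Benjamini-Hochberg adjusted p under 0.05. The code was tested on simulated data. No p-value is given for Sprr1a, Lrtm2 or Defb1. These genes and all gene lists were chosen with earlier results of these data known. A group with 0 reads was given a floor of 3 reads over the group, and ratios against 1 read have exact counting intervals at 95%, which cover counting error only.

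Named were the 3 genes, the 6 closest by group means and 4 within groups per gene, up to 6 called genes per list by lowest adjusted p, and the nearest neighbours, leaving out predicted genes. Alternatives were other pseudocounts, filters and scaling, edgeR 4.0.16 and DESeq2 1.42.0 on the recovered reads, fits within a model, the replicate block, and each mouse left out. Leaving out BDL28 replicate 1 from correlations, ratios and day differences, CsA7 replicate 3 from a bound, and list counts under total-count scaling or without single mice were chosen after seeing the data.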

Additional observations from a re-analysis of the deposited data

Results flagged for a closer look

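Each gene named from the lists and the 3 genes were searched in every group of 4 mice for a mouse far from the others, by the gap to the nearest mouse over the whole range. Of 294 groups, 21 had a mouse past Dixon's 95% limit, which normally distributed values pass in about 1 of 20. Normalized counts were used, and a group with reads in only 1 mouse passes the limit by construction. Such groups were Sprr1a in CTLD and SHAM, Lrtm2 in SHAM, CsA7 and CsA28, and Flrt3 in SHAM. The number flagged is therefore not set against a chance rate. In BDL28, replicate 1 was far from the rest for Sprr1a (157), Defb1 (206), Slpi (63.9) and Arg1 (3271, the lowest), and replicate 2 for Flrt1 (0). Defb1 had a high mouse in DDC7, replicate 4, at 312, and Lyz2 in DDC7, replicate 3, at 742.

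In CsA7, replicate 3 was far for Sprr1a (7.66), Lrtm2 (1.53) and S100a11 (95.8), replicate 2 for Dsp (192, the lowest) and replicate 1 for Arg1 (6159). In CsA28, replicate 1 was far for Slpi (25.9), S100a8 (18.1) and Lcn2 (38.8), and replicate 2 for Lrtm2 (1.07). In the controls the single mouse with reads stood out for Sprr1a in CTLD (1.305), Sprr1a and Lrtm2 in SHAM (1.05 each) and Flrt3 in SHAM (2.48), and Tgm2 was high in CTLD replicate 2 (261). Several of these rest on 1 or 2 reads.

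Some named genes had every treated mouse above its controls in one model and every treated mouse below its controls in another, and this difference was not tested. Lyz2 had a log2 fold change of 1.65 in BDL7, 1.29 in BDL28, 1.57 in DDC7 and 2.08 in DDC28, and of -0.66 in CsA28. Lrig2 had 1.14 in DDC7 and 1.23 in DDC28, and -0.56 in CsA7. Rtn4rl1 had 0.45 in BDL7, and -0.47 in DDC7 and -0.84 in DDC28.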

How the results depend on the processing

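Of 270 values of Sprr1a, Lrtm2 and Defb1 under alternatives, 227 stayed within 1 SD between mice, 43 moved and 0 changed sign. The cause was not tested. Controls of Sprr1a and Lrtm2 held 0 or 1 read. With a pseudocount of 0.5, Sprr1a had 6.98 in BDL7, 8.35 in DDC7, 7.95 in DDC28, and Lrtm2 had 5.79 in BDL7, 8.53 in BDL28, 5.40 in DDC7, 8.58 in DDC28. With a pseudocount of 4, Sprr1a had 4.36 in BDL7, 5.74 in DDC7, 5.35 in DDC28, and Lrtm2 had 3.25 in BDL7, 5.88 in BDL28, 2.64 in DDC7, 5.61 in DDC28, and Defb1 had 4.85 in DDC7, 4.55 in DDC28. With edgeR, Sprr1a had 7.77 in BDL7, 6.65 in BDL28, 4.48 in CsA7, 2.48 in CsA28, 9.15 in DDC7, 8.85 in DDC28, and Lrtm2 had 6.46 in BDL7, 9.25 in BDL28, 2.19 in CsA7, 1.72 in CsA28, 7.53 in DDC7, 10.63 in DDC28. With DESeq2, Sprr1a had 7.98 in BDL7, 6.88 in BDL28, 3.54 in CsA7, 1.39 in CsA28, 9.35 in DDC7, 9.05 in DDC28, and Lrtm2 had 6.68 in BDL7, 9.48 in BDL28, 1.05 in CsA7, 0.69 in CsA28, 6.65 in DDC7, 9.74 in DDC28, and Defb1 had 5.55 in DDC7. With total-count scaling, Defb1 had 5.67 in DDC7, 5.39 in DDC28. The within-group correlation of Sprr1a and Lrtm2 turned to 0.25 without BDL28 replicate 1, against -0.16.

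Leaving out 1 mouse at a time, Sprr1a ran 5.80 to 6.39 in BDL7, 2.16 to 4.09 in BDL28, 0.61 to 1.65 in CsA7, 0.32 to 0.68 in CsA28, 7.31 to 7.82 in DDC7, 6.78 to 7.495 in DDC28. Lrtm2 ran 4.83 to 5.22 in BDL7, 7.55 to 7.999 in BDL28, 0.00 to 0.45 in CsA7, 0.00 to 0.35 in CsA28, 4.12 to 4.73 in DDC7, 7.43 to 7.68 in DDC28. Defb1 ran 1.94 to 2.33 in BDL7, 1.68 to 2.44 in BDL28, 0.87 to 1.32 in CsA7, 0.14 to 0.65 in CsA28, 5.27 to 5.43 in DDC7, 4.93 to 5.13 in DDC28. Calls summed over comparisons ran 24 to 26 for cornified envelope partners, 21 to 28 for nerve-injury genes, 17 to 20 for gp130 genes, 14 to 18 for leucine-rich repeat genes and 28 to 33 for antimicrobial proteins. Genes called ran 228 to 489 in CsA7 (507 with all mice), with 303 without CsA7 replicate 3 and 228 without CsA7 replicate 4, and 0 to 36 in CsA28 (3 with all), with 0 without VEHICLE replicate 1, 1 without VEHICLE replicate 2, 36 without VEHICLE replicate 3, 0 without CsA28 replicate 1 or 2, and 7 without CsA28 replicate 4.

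CsA7 had 839 genes called with total-count scaling and 269 in a fit of its model alone. CsA28 had 0 with a pseudocount of 4, 10 with total-count scaling, 68 with DESeq2 and 0 in a fit of its model alone. A filter of 20 left 5 calls of leucine-rich repeat genes, against 17, since fewer were tested. Of the 6 genes closest to Sprr1a, Lrtm2 and Defb1, 1, 0 and 2 were shared by Spearman correlation and 3, 2 and 2 over 36 libraries. Replicate numbers did not pair the mice (residual correlations -0.131 to 0.0807). With the replicate block 4879, 5892, 499, 3, 5891 and 6639 genes were called in BDL7, BDL28, CsA7, CsA28, DDC7 and DDC28, and 1 of 93 named calls was lost (Csrp3 in DDC28). Over all alternatives, 16 of 93 named calls were lost somewhere, with adjusted p of 0.0501 to 0.978 by limma, edgeR or DESeq2, and 0 reversed: Il11ra1 in BDL7 and BDL28, Il6ra, Hspb1, Hamp and Lingo4 in BDL7, Slpi and Flrt1 in BDL28, Il6st, Arg1 and Flrt3 in DDC7, and Il6st, Csrp3, Rtn4rl1, Lingo4 and Lrfn3 in DDC28. Depth limits Sprr1a and Lrtm2 in controls, where 1 read or none was found.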

Other observations

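Reads of 2 other Sprr genes came mostly from single mice: Sprr2a2 had 30 reads over DDC28, of which 28 were in replicate 1, and Sprr2a3 had 14 over SHAM, of which 12 were in replicate 2. The neuron marker list, with 8 of 10 genes in the table, summed to 125 to 171 normalized counts in CsA7 and 55.8 to 87.3 in VEHICLE, and to 45.3 to 71.9 in CsA28. Of this list Syt1 held 2274 reads over all libraries and reached 162 normalized counts, so the sums rest mostly on this gene.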
